A study of Mus musculus with 16 samples.

Results

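The genes described here are 28 genes of cholesterol metabolism, out of 38293 genes in the count files of 2 mouse lymphoid cell lines. They were matched by symbol from a list, and all 28 matched 1 Ensembl gene each and had enough counts to be tested. They comprise 18 enzymes of synthesis (7 up to farnesyl diphosphate, 11 from squalene on), 5 regulators of the SREBP pathway, and 5 genes of sterol efflux, storage and the LXR receptors. The list does not cover every step of the pathway. P6D4 derives from the murine thymic lymphoma SCID.adh and carries the label DN3, an early thymocyte stage, whereas 70Z/3 is a lymphoblast line labelled pre-B, an early stage of the B lineage. No treatment, genetic change or animal age is labelled for the libraries of either line. RNA-Seq was done in 3 libraries per line, and ChIP-Seq for the zinc finger transcription factor Miz1 once per line; the ChIP-Seq samples for histone marks were not analysed here. With 1 line per lineage, lineage and cell line cannot be told apart, and the labels do not say whether replicates came from separate cultures, so p-values measure the spread between these libraries only.

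Cells build cholesterol from acetyl-CoA by way of mevalonate, farnesyl diphosphate, squalene and lanosterol. The transcription factors SREBP1 and SREBP2 (genes Srebf1 and Srebf2) switch on the enzymes when sterol is scarce: the escort protein Scap carries them out of the endoplasmic reticulum, and Insig proteins hold that complex back when sterol is plentiful. When sterol accumulates, oxysterols activate the LXR receptors (Nr1h2 and Nr1h3), which turn on the export pumps Abca1 and Abcg1. Lymphocytes that divide need sterol for new membrane.

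Each RNA library held 45.5 to 54.8 M counts in genes. Levels are CPM, a gene's share of the scaled library total, and compare a gene between libraries but not 1 gene with another, since no transcript length enters them. The lines carried the markers of their labels. The 8 pre-B markers summed to 1867 to 1919 CPM in 70Z/3 and 0.759 to 1.32 CPM in P6D4, and the 10 early T markers to 4233 to 4286 CPM in P6D4 and 169.5 to 175.7 CPM in 70Z/3. Of the early T markers, Lck (95.1 CPM), Notch1 (41.1 CPM) and Tcf7 (32.6 CPM) made up most of what 70Z/3 held. The 8 myeloid markers summed to 31.0 to 37.7 CPM in P6D4 and 23.3 to 24.9 CPM in 70Z/3, but their members went opposite ways. Itgam (29.1 against 7.07 CPM) and Cd68 (3.46 against 1.99 CPM) were higher in P6D4, and Lyz2 (1.96 against 12.3 CPM) and Csf1r (2 counts against 398) lower, while Mpo, Elane, Adgre1 and Cd14 had 8 counts or fewer per line. The part of such transcripts in the results was not tested. Stromal and epithelial markers summed to 3.78 to 4.49 CPM and 0.518 to 0.936 CPM, most of it Pdgfrb, and Epcam, Krt18, Col3a1 and Dcn had no count in any library. In bulk RNA, a smaller share of cells with a transcript and less of it per cell cannot be told apart.

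The synthesis enzymes were higher in P6D4 in 15 of 18 cases and lower in 3. The background to that count is a large difference between the lines: 43.3% of the 13750 genes tested were called higher in P6D4 and 43.2% lower (edgeR quasi-likelihood test, Benjamini-Hochberg adjusted p under 0.05). Among the synthesis genes the shares were 83.3% and 16.7%. Their median log2 fold change was 0.66, against 0.01 over all genes tested. Against a 2-fold difference (edgeR glmTreat), 6 of 18 were higher and 0 lower, or 33.3% and 0%, where all genes gave 16.6% and 18.6%. The summed level of the 18 genes was 2204, 2144 and 2279 CPM in the 3 P6D4 libraries and 1212, 1297 and 1291 CPM in the 3 of 70Z/3, with no overlap and a ratio of the means of 1.74. The regulators and the efflux, storage and LXR genes did not run one way. Of the 5 regulators, 2 were higher (40%) and 3 lower (60%), with a median of -0.17. Of the 5 genes of efflux, storage and LXR, 3 rose (60%), 1 fell (20%) and 1 was not called (median 0.20). The one that fell, Abca1, was nearly absent from P6D4.

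**Figure D1:**
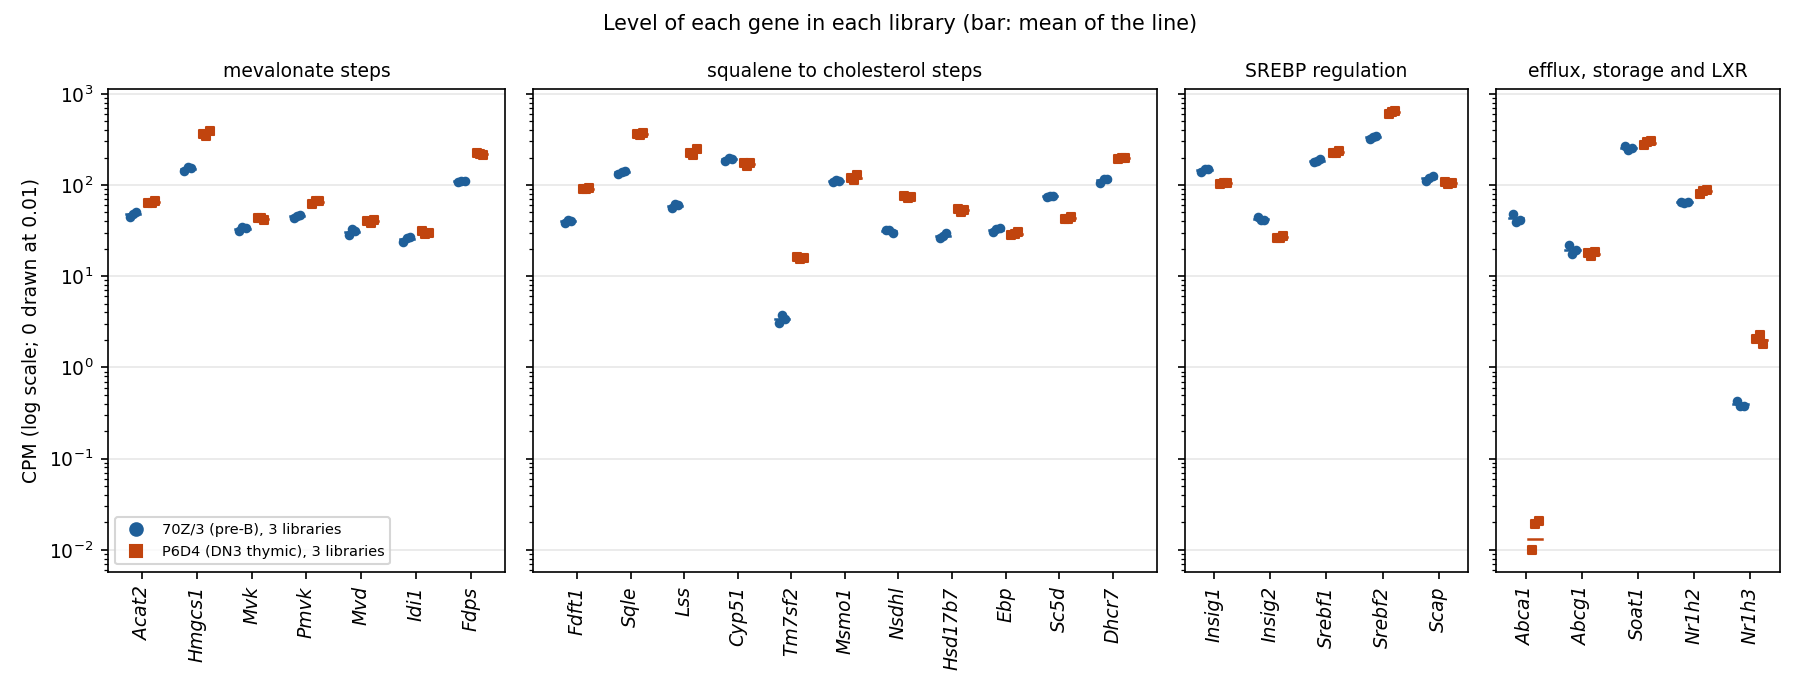
Level of each of the 28 genes in each library, in CPM on a log axis, in 4 panels by role; blue circles are the 3 libraries of 70Z/3, orange squares the 3 of P6D4, and bars the mean of a line, with a value of 0 drawn at 0.01. The libraries of the lines overlap for Abcg1 alone among the 28 genes, and Abca1 stands near 0 in P6D4.

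For 27 of the 28 genes the 3 libraries of one line all lay above the 3 of the other. That separation was the rule in these data, holding for 87.4% of all genes tested, so the sizes of the differences say more than their separation.

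Promoter sequence was at hand for 24 of the 28 genes (RefSeq, GRCm38.p6, 250 bases before to 50 after each gene start), 15 of them synthesis genes. SREBPs bind the sterol regulatory element, usually beside sites for the general factors NF-Y and Sp1, so those letters were searched on both strands, counting a gene once if any of its listed promoters held a match. The core TCACNCCA of the sterol regulatory element stood in the promoters of Hmgcs1, Msmo1 and Srebf2. That is 2 of 15 synthesis promoters (13.3%), against 4.66% of 17492 protein-coding genes and 4.64% of those tested here. The NF-Y box CCAAT stood in 14 of 15 synthesis promoters (93.3%), all but that of Acat2, against 42.3% of all protein-coding genes and 43.4% of those tested here. The Sp1 box GGGCGG also stood in 14 of 15, all but Pmvk, against 49.2% and 67.6%. CACGTG, the E-box that SREBPs can also bind, stood in 3 of 15 (Hsd17b7, Sc5d and Dhcr7), against 8.91% and 11.6%. CCAAT was found in 1 of the 4 efflux, storage and LXR promoters (Soat1) and in 4 of the 5 regulators, all but Scap. A match is a run of letters and not a shown binding site. Sites with other letters or outside the searched bases are missed, so a gene without a match may still hold one.

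The 3 promoters with the sterol regulatory core are shown 5′ to 3′ on the gene's strand, with the core and each CCAAT (or its reverse complement ATTGG) in capitals. They belong to Hmgcs1, at chr13:119690164-119690283 (plus strand), Srebf2, at chr15:82147057-82147176 (plus strand), and Msmo1, at chr8:64733686-64733805 (minus strand). In Hmgcs1 the core begins 137 bases before the gene start, in Srebf2 162 and in Msmo1 177.
Hmgcs1: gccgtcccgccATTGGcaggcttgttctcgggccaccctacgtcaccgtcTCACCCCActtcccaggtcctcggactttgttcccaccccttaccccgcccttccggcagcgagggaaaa
Srebf2: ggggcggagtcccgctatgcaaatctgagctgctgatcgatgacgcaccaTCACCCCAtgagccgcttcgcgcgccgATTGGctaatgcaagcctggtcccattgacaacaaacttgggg
Msmo1: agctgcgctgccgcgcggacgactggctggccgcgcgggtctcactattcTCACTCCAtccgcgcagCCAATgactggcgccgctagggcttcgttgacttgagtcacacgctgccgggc

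A CCAAT box was present in genes that rose and in genes that fell. To show this, the 80 bases before the start of Tm7sf2 (chr19:6067851-6067930, minus strand), the synthesis gene with the largest rise, are set beside those of Cyp51 (chr5:4104698-4104777, minus strand), which was slightly lower in P6D4. The box is in capitals in each.
Tm7sf2: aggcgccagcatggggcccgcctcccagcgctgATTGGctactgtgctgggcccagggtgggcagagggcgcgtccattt
Cyp51: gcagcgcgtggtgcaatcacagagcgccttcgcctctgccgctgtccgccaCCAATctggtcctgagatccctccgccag

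All 7 enzymes of the mevalonate steps were higher in P6D4, by a median log2 fold change of 0.44. Of all genes tested, 43.3% were called higher. Hmgcs1, the cytosolic HMG-CoA synthase, differed most and was the one past a 2-fold difference. It was at 362, 345 and 386 CPM in P6D4 and 142.7, 156 and 155 CPM in 70Z/3, higher by 1.27 ± 0.05 on the log2 scale (SE; edgeR adjusted p = 9.08e-12). The lowest P6D4 library was thus above 2 times the highest of 70Z/3. Fdps, which makes farnesyl diphosphate, followed at 223, 219 and 214 CPM against 108.8, 111 and 109.3 CPM. It rose by 0.99 ± 0.03 on the log2 scale (SE; edgeR adjusted p = 2.44e-12), just short of 2-fold, and its libraries differed little within each line. The remaining 5 rose less. They were Pmvk (phosphomevalonate kinase) and Mvk (mevalonate kinase), Acat2, which condenses acetyl-CoA, Mvd, which decarboxylates the diphosphate, and Idi1, which isomerises the product. Their log2 fold changes were 0.53, 0.37, 0.44, 0.37 and 0.23, with SE of 0.04 to 0.06 and edgeR adjusted p of 7.52e-08 to 0.00204. Idi1, the least changed of them, was at 31.2, 29.3 and 29.7 CPM in P6D4 and 23.7, 26.3 and 27.1 CPM in 70Z/3. The means of the lines were 30.1 and 25.7 CPM. The highest 70Z/3 library (27.1 CPM) lay closer to the lowest of P6D4 (29.3 CPM) than to the lowest of 70Z/3 (23.7 CPM). Acat3, the near-identical copy of Acat2, had 15 counts in P6D4 and 7 in 70Z/3 and was not tested. Alignments that were not unique are outside the gene counts, so reads that fit both copies may be missing from each.

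From squalene on, 8 of 11 enzymes were higher (72.7%) and 3 lower (27.3%), where all genes tested gave 43.3% and 43.2%. Neighbouring steps differed in direction. Fdft1, the squalene synthase that commits farnesyl diphosphate to sterols, was at 90.6, 89.4 and 93.5 CPM in P6D4 and 38.1, 41.1 and 40.2 CPM in 70Z/3 (log2 fold change 1.195 ± 0.04, SE; edgeR adjusted p = 3.78e-12). It shares 774 bases with the gene Ctsb in the annotation, and the sources used here do not give the strand setting of the counting. Sqle, the squalene epoxidase, was at 360.3, 352 and 370.0 CPM against 131, 138 and 143.1 CPM, higher by 1.39 ± 0.04 (SE; edgeR adjusted p = 3.62e-13). Lss, which closes the ring to give lanosterol, was at 226, 216 and 250.2 CPM against 55.4, 62.4 and 60.6 CPM. At 1.96 ± 0.06 (SE; edgeR adjusted p = 7.02e-13) it was the second most changed synthesis gene, and its P6D4 libraries spread by 17.7 CPM (SD, n = 3).

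The next enzyme, Cyp51, which removes the methyl group at carbon 14 of lanosterol, went the other way. It was at 175.6, 161.5 and 173 CPM in P6D4 and 182.9, 198 and 195 CPM in 70Z/3, lower by -0.18 ± 0.04 (SE; edgeR adjusted p = 0.00144). The ratio of Lss to Cyp51 counts within a library, which no scaling of libraries can alter, was 1.29, 1.34 and 1.45 in P6D4 and 0.303, 0.315 and 0.311 in 70Z/3. Lss therefore had more counts than Cyp51 in each P6D4 library and fewer in each 70Z/3 library. Tm7sf2, a reductase for the double bond that Cyp51 leaves, had the largest rise of the 18, at 16.1, 15.3 and 16 CPM against 3.11, 3.71 and 3.38 CPM (2.21 ± 0.08, SE; edgeR adjusted p = 7.87e-12). Lbr, a nuclear envelope protein that carries out the same reduction, was at 603, 630.4 and 645 CPM against 607, 620.2 and 624 CPM, which overlap (log2 fold change 0.02 ± 0.03, SE; not called, edgeR adjusted p = 0.563).

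Among the enzymes that strip the methyl groups at carbon 4, Msmo1 was nearly level and its partners were not. Msmo1 was at 118, 114 and 129 CPM in P6D4 and 108.9, 113 and 110.2 CPM in 70Z/3. The lines nearly touched, and the rise of 0.12 ± 0.04 on the log2 scale (SE; edgeR adjusted p = 0.0201) lost its call in 5 of 14 alternative settings (adjusted p 0.00184 to 0.0923 over all). Nsdhl, the dehydrogenase that acts after it, was at 75.0, 72.2 and 73.5 CPM against 31.8, 32.1 and 30 CPM, higher by 1.23 ± 0.04 (SE; edgeR adjusted p = 3.08e-12). Hsd17b7, the keto reductase, was higher by 0.92 ± 0.05 (SE; edgeR adjusted p = 8.75e-10), at 52.9 ± 2.24 against 27.9 ± 1.66 CPM (SD, n = 3).

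The closing steps were divided as well. Ebp, which shifts the ring double bond, was at 28.6, 29.0 and 30.4 CPM in P6D4 and 30.8, 32.8 and 33.8 CPM in 70Z/3. The difference of -0.15 ± 0.05 on the log2 scale (SE; edgeR adjusted p = 0.0134) lost its call in 3 of 14 alternative settings (adjusted p 0.00345 to 0.106 over all). Sc5d, the desaturase that follows, was the synthesis gene with the clearest fall, at 42.0, 42.4 and 45.1 CPM against 74.5, 75.9 and 75.4 CPM (-0.80 ± 0.04, SE; edgeR adjusted p = 2.27e-10). Dhcr7, which makes cholesterol from 7-dehydrocholesterol, was higher, at 192, 196 and 198 CPM against 106, 117 and 116 CPM (0.79 ± 0.04, SE; edgeR adjusted p = 3.29e-10). The ratio of Dhcr7 to Sc5d counts was 4.56, 4.63 and 4.40 in P6D4 and 1.42, 1.54 and 1.54 in 70Z/3, so these consecutive steps differed in balance by a factor of 3.02. No synthesis gene fell past 2-fold.

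**Figure D2:**
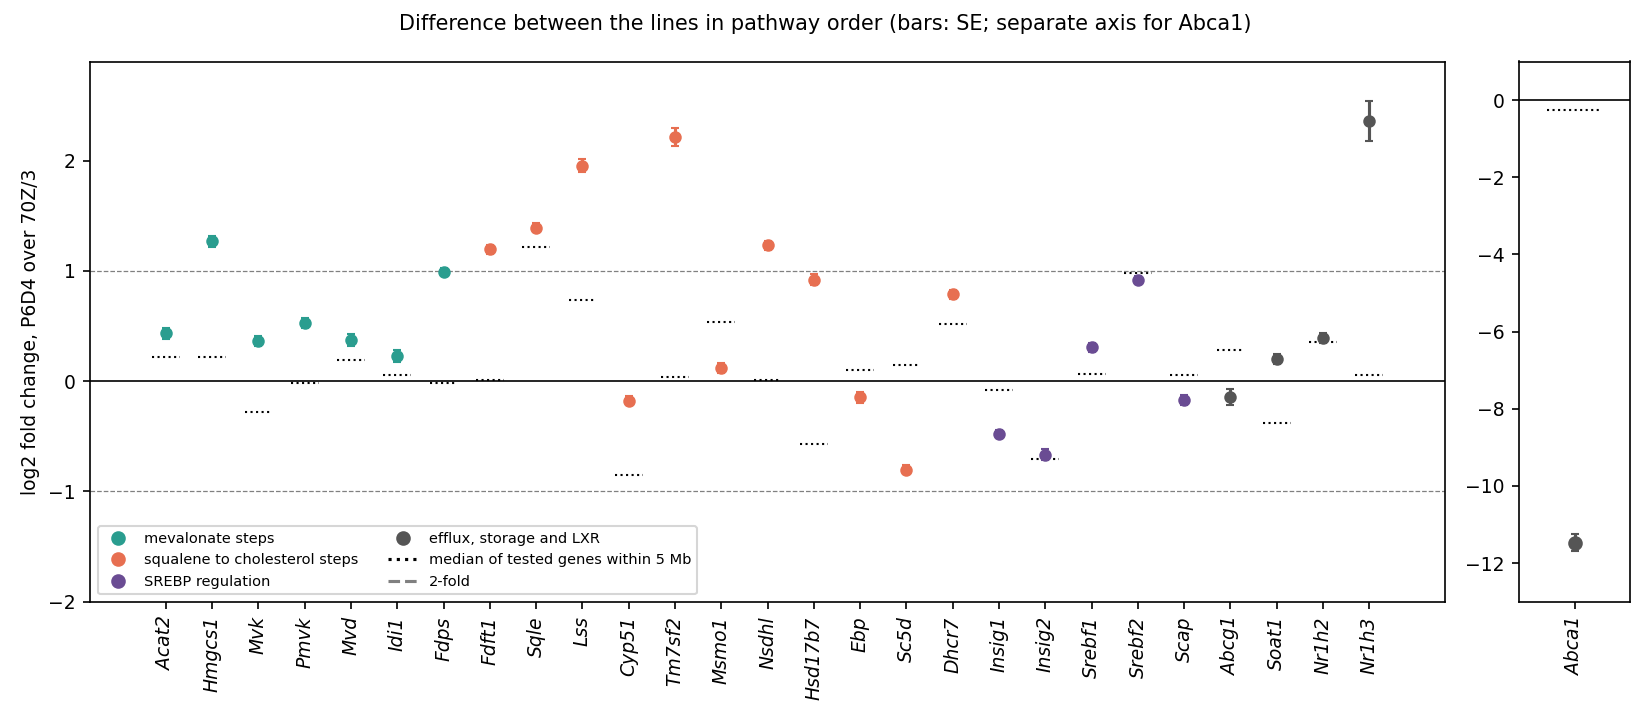
Log2 fold change of each gene (P6D4 over 70Z/3) in pathway order, with SE; colours mark the 4 roles, dashed lines a 2-fold difference and dotted lines the median of the tested genes within 5 Mb, and Abca1 has an axis of its own. Hmgcs1, Fdft1, Sqle, Lss, Tm7sf2, Nsdhl and Nr1h3 lie above the upper dashed line, and Sqle and Srebf2 lie near the medians of their neighbours.

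The regulators were split between the transcription factors, which were higher in P6D4, and the proteins that retain or carry them, which were lower. Over all genes tested the calls were also split, with 43.3% higher and 43.2% lower. Srebf2, the factor with the stronger hold on sterol genes, was at 605, 636 and 649 CPM in P6D4 and 323, 335 and 342 CPM in 70Z/3. It was higher by 0.92 ± 0.04 (SE; edgeR adjusted p = 2.00e-11). Srebf1, whose products act more on fatty acid genes, differed less, at 224, 223 and 237 CPM against 178, 182.8 and 192 CPM (0.31 ± 0.04, SE; edgeR adjusted p = 4.97e-06). The ratio of Srebf2 to Srebf1 counts was 2.70 to 2.85 in P6D4 and 1.78 to 1.83 in 70Z/3, without overlap. The counts do not separate the isoforms of Srebf1.

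Insig1 and Insig2, the retention proteins, were both lower in P6D4. Insig1 was at 102.7, 104.7 and 105 CPM in P6D4 and 137, 149.5 and 148 CPM in 70Z/3 (-0.48 ± 0.04, SE; edgeR adjusted p = 4.95e-08). Insig1 is itself known as a gene that SREBPs switch on, and it ran opposite to most of the enzymes. Its whole span of 7251 bases is shared with the long noncoding RNA Gm35223, and with the strand setting unknown its counts, and the ratios made from them, may hold or lack reads of that gene. Long noncoding RNAs also overlap Lss (4930483K19Rik, 11269 bases) and Mvd (Gm51557, 3213 bases). Insig2 was at 26.5, 26.5 and 27.8 CPM against 44.7, 41.5 and 41.7 CPM (-0.66 ± 0.05, SE; edgeR adjusted p = 1.16e-08). Scap, the escort, was at 109.0, 103.1 and 104.9 CPM against 110.9, 120.2 and 124.8 CPM (-0.17 ± 0.04, SE; edgeR adjusted p = 0.00305). The ratio of Srebf2 to Insig1 counts was 5.89 to 6.18 in P6D4 and 2.24 to 2.36 in 70Z/3. No regulator passed the test against a 2-fold difference.

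Of the export pumps, one was almost missing from P6D4 and the other was level. Abca1 (Ensembl ENSMUSG00000015243, chr4:53030789-53159988) passes cholesterol to lipid-poor acceptors. It had 0, 1 and 1 counts in the 3 P6D4 libraries and 48.7, 39.5 and 41.8 CPM in 70Z/3. That is 2 counts against 6076, which puts 70Z/3 higher by a ratio of 3398, with an exact 95% interval of 940.3 to 28060, which covers counting error only (edgeR adjusted p = 4.63e-15). Among all genes tested, 1.75% had a larger fitted difference in either direction. The start listed for its promoter, base 53159895, lies inside the gene bounds given above. Much of the stretch below is therefore within the annotated gene. The 120 bases before that listed start, at chr4:53159896-53160015 (minus strand), hold a GGGCGG, in capitals, and no CCAAT.
Abca1: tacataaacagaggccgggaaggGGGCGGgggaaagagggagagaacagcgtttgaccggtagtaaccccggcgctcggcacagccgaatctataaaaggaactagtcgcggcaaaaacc

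Abcg1, which exports sterol to lipoprotein particles, was at 18.2, 16.7 and 18.2 CPM in P6D4 and 21.8, 17.5 and 19.4 CPM in 70Z/3. Its libraries overlapped, and its log2 fold change of -0.14 ± 0.08 (SE) was not called (edgeR adjusted p = 0.0908). Without 70Z/3 replicate 2 it was called lower, at -0.23 (edgeR adjusted p = 0.0107; range over 14 alternatives 0.0107 to 0.408). Soat1, which esterifies cholesterol for storage, was slightly higher in P6D4, at 276, 293 and 304 CPM against 265, 241 and 252.5 CPM (0.20 ± 0.04, SE; edgeR adjusted p = 0.00073). The LXR receptor genes were both higher. Nr1h2, the widely expressed LXR beta, was at 80.5, 85.8 and 88.6 CPM against 65.5, 63 and 65.8 CPM (0.39 ± 0.04, SE; edgeR adjusted p = 1.06e-06). Nr1h3, which encodes LXR alpha, was low in each line, at 2.04, 2.24 and 1.79 CPM against 0.426, 0.373 and 0.378 CPM. That is 318 counts against 55, a rise of 2.36 ± 0.18 on the log2 scale (SE; edgeR adjusted p = 2.65e-08). P6D4 thus had higher receptor transcripts and next to no transcript of the receptors' target Abca1.

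**Figure D3:**
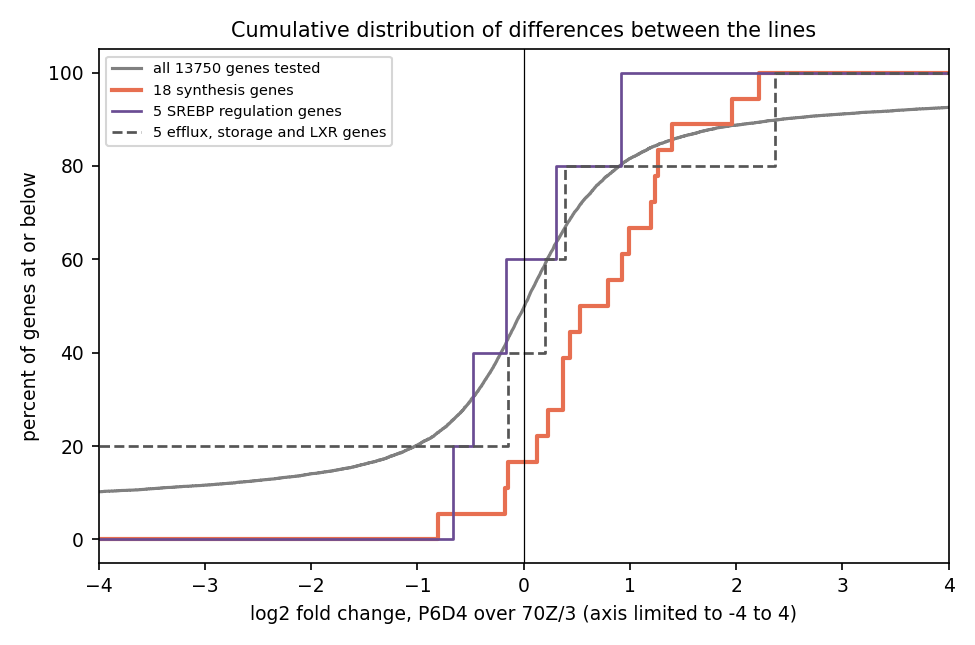
Percent of genes at or below each log2 fold change (P6D4 over 70Z/3, both tails beyond the axis left out), for all 13750 genes tested, the 18 synthesis genes, the 5 SREBP regulation genes and the 5 efflux, storage and LXR genes. The synthesis curve lies to the right of the grey curve over most of its range (median 0.66 against 0.01), and the other curves cross it; Abca1, at -11.47, is off the axis.

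Where the genes lie was set beside these values, since genes of chromosome 15 were higher in P6D4 as a group. Other chromosomes with members were shifted less, with medians of 0.45 for chromosome 10, -0.46 for chromosome 1 and -0.36 for chromosome 5. The other tested genes of chromosome 15 had a median log2 fold change of 0.90, and 2 members lie there, Sqle (chr15:59315092-59331193) and Srebf2 (chr15:82147269-82205379). The median of the tested genes within 5 Mb was 1.22 around Sqle (27 genes) and 0.98 around Srebf2 (123 genes). Sqle was therefore 0.18 above its neighbours and Srebf2 -0.06 from them. The part of chromosome 15 in the rise of these 2 genes was not tested. Lss, on chromosome 10, stood 1.22 above the median of its 155 neighbours, which was 0.74. Msmo1 stood -0.41 from a neighbour median of 0.54, and Cyp51, lower in P6D4, stood 0.67 above one of -0.85. Insig2, on chromosome 1, differed by 0.04 from its neighbours, which had a median of -0.70. Insig1, on chromosome 5 like Cyp51, stood -0.39 from a neighbour median of -0.08. The part of position in these values was not tested either. Of the 18 synthesis genes, 16 were above the median of their chromosome and 15 above that of their neighbours, by a median of 0.61 and 0.59. By construction, a median has as many genes above it as below. Cyp51 counts among those above although it was lower in P6D4.

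Miz1 peaks were not found at the starts of these genes. The authors' lists hold 21629 peaks for P6D4 and 10462 for 70Z/3, each from 1 ChIP library. After filtering, 2.07 of 60.8 M tags were left in P6D4 and 4.48 of 30.9 M in 70Z/3. So few tags limit what an absent peak can show, most of all in P6D4. Of the 28 genes, 0 had a peak summit within 1 kb of a start in either list (either gene end for Fdps, Fdft1, Sqle and Abcg1), where 0.941% and 2.88% of 21887 protein-coding genes did. With so small a share over all genes, 0 of 28 is close to what those shares give. The nearest was a 70Z/3 peak 1191 bases from the start of Mvd, at chr8:122444412-122444835, with a pileup of 31 tags and 17.3-fold over background by the authors' values. The nearest P6D4 summit to Mvd was 63021 bases away. The start of the long noncoding RNA 9330133O14Rik was nearer to that peak, at 957 bases.

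Other genes of the pathway were read from lists with fixed members. The shares to set beside their counts are those of all genes tested, 43.3% called higher and 43.2% lower. Genes that process SREBPs or degrade sterol-regulated proteins were higher in 5 of 7 cases (71.4%), lower in 1 (14.3%) and not called in 1 (median log2 fold change 0.37). Mbtps2, the protease that releases SREBPs within the membrane, was higher by 0.76 ± 0.05 and the ubiquitin ligase Rnf139 by 1.22 ± 0.04 (SE). Rnf139 lies on chromosome 15 as well. Of 13 fatty acid synthesis genes under SREBP control, 7 were higher (53.8%), 5 lower (38.5%) and 1 not called (median 0.57). Those shares are near the ones of all genes tested. Gpam, which starts glycerolipid assembly, and Acss2, which makes acetyl-CoA from acetate, were higher by 2.11 ± 0.07 and 1.73 ± 0.05 (SE). Elovl6 and Fads1, an elongase and a desaturase, were lower by -0.90 and -0.33.

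The branches that use farnesyl diphosphate for other products had 8 of 11 genes higher (72.7%), 1 lower (9.09%) and 2 not called. All were within 2-fold (median 0.19). All genes tested gave 43.3% and 43.2%. Rabggtb, a subunit of the enzyme that prenylates Rab proteins, was higher by 0.79 and Dhdds, of dolichol synthesis, by 0.58, while Pggt1b, a subunit of another prenyl transferase, was lower by -0.28. Of 6 tested genes of side steps and electron donors, 2 were higher (33.3%), 1 lower (16.7%) and 3 not called (median 0.01). Cyb5r3, a reductase that passes electrons to sterol enzymes, was lower by -0.37. Por, which feeds electrons to Cyp51 and Sqle, had a mean of 77.2 CPM in each line and was named after its values were seen.

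Of 10 tested genes of sterol uptake and transport, 3 were higher (30%), 5 lower (50%) and 2 not called, near the shares of all genes tested (43.3% and 43.2%), with a median of -0.16. The lysosomal lipase Lipa was at 22.7, 24.2 and 23.5 CPM in P6D4 and 58.1, 54.3 and 56.2 CPM in 70Z/3 (-1.26 ± 0.05, SE; edgeR adjusted p = 7.03e-12), and Stard3nl, a protein of endosome contact sites, was lower by -0.81. Lrp8, a lipoprotein receptor, and Npc2, which binds cholesterol in lysosomes, were higher by 0.71 and 0.61.

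Among 8 genes known as LXR targets, 3 had too few counts. The 5 tested went in all directions: 2 higher (40%), 2 lower (40%) and 1 not called. Those shares are near the 43.3% and 43.2% of all genes tested. Mylip, a ubiquitin ligase that acts on lipoprotein receptors, had no count in P6D4 and 22.2, 18.4 and 18.7 CPM in 70Z/3. Set against a floor of 3 counts per library, P6D4 was at least 322-fold lower. Smpdl3a, a phosphodiesterase, also had no count in P6D4 and was at least 144-fold lower. Arl4c, a small GTPase, ran opposite, at 48.6, 57.6 and 58.6 CPM in P6D4 and 3 counts in all in 70Z/3, a ratio of 2559 (exact 95% interval 875.3 to 12410). Pltp, a phospholipid transfer protein, was higher by 3.12 ± 0.25 (SE) at low levels, 1.44 against 0.165 CPM. Abca1, Mylip and Smpdl3a were thus next to absent in P6D4, and Arl4c in 70Z/3.

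Of 7 enzymes that turn cholesterol into oxysterols, steroids or bile acids, 4 could be tested, with 3 higher (75%) and 1 lower (25%). All genes tested gave 43.3% and 43.2%. Cyp11a1, which cuts the cholesterol side chain to start steroid synthesis, was at 61.8, 77.4 and 100.8 CPM in P6D4 and 0.192, 0.207 and 0.155 CPM in 70Z/3 (8.73 ± 0.27, SE; edgeR adjusted p = 1.39e-12). Its P6D4 libraries spread widely, by 19.7 CPM (SD, n = 3). Cyp39a1, an oxysterol hydroxylase, was at 58.8, 52.6 and 42.6 CPM against 0.319, 0.394 and 0.444 CPM (7.05 ± 0.17, SE; edgeR adjusted p = 9.57e-14). Cyp27a1, the mitochondrial sterol hydroxylase, had 3 counts in P6D4 and was at 4.297, 3.98 and 4.02 CPM in 70Z/3, a ratio of 214 (exact 95% interval 73.0 to 1043). Ch25h and Cyp7b1 had 1 count or none in the whole data set.

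**Figure D4:**
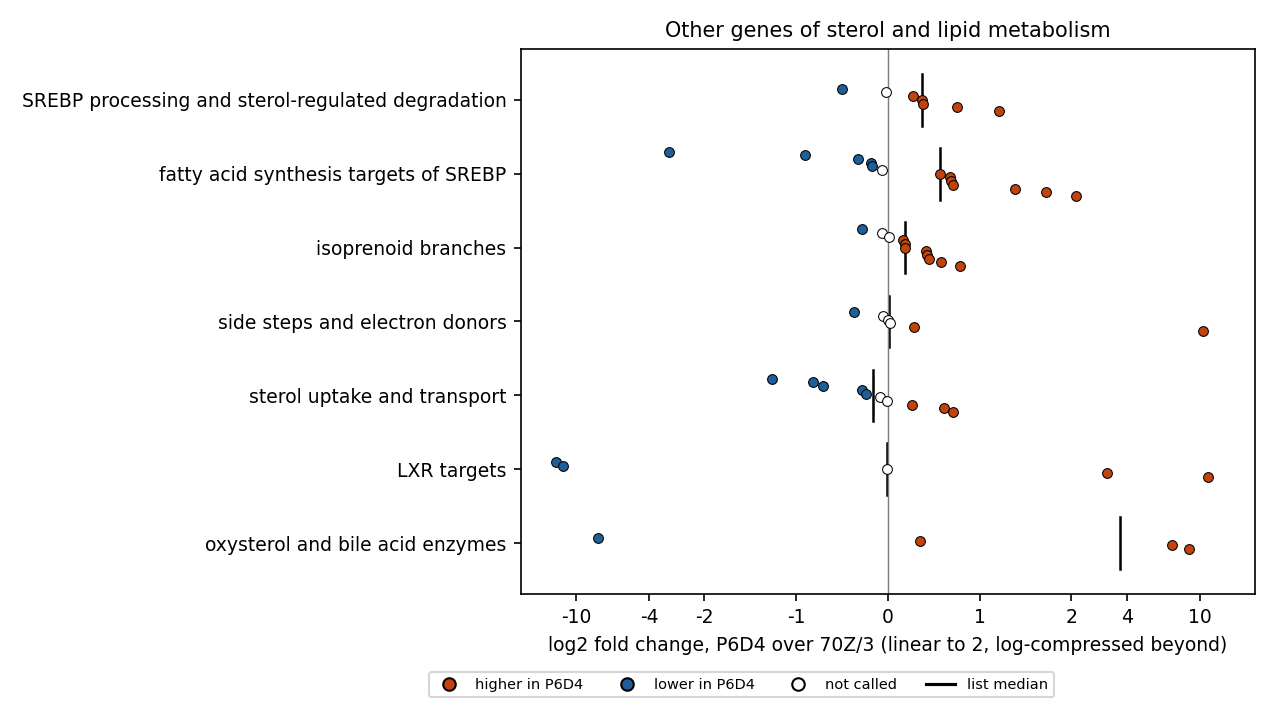
Log2 fold change (P6D4 over 70Z/3; linear up to 2 and log-compressed beyond) of each tested gene in 7 lists of related genes; orange points were called higher in P6D4, blue lower and white not called, and black bars are list medians. Points of the LXR target list lie near 0 and beyond 3 in each direction, while isoprenoid genes stay within 2-fold.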

How the data were processed

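The deposited RNA-Seq values are raw counts per Ensembl gene, which the authors made with HTSeq; per the submitters' processing notes TopHat2 2.0.10 was used in the series, with builds mm10 and GRCm38. The 5 summary lines per file that name no gene were left out: reads outside genes were 14.5 to 16.0% and ambiguous ones 0.382 to 0.424% of uniquely aligned reads. Per the file headers, the Miz1 peaks were called by the authors with MACS2 on 1 library per line at a q-value of 0.01; the deposited values used are the pileup (signal), the fold (ratio over local background) and the -log10 p-value.

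Counts were tested with edgeR 4.0.16 in R 4.3.3 (filterByExpr, TMM, quasi-likelihood; cell line as the only term; glmTreat at a log2 fold change of 1), over all 13750 genes at once. An SE is the log2 fold change divided by the square root of F, which is too small where counts are few. Genes with 0 counts in a line were given a bound against 3 counts per library. The test was also run on simulated counts in which few genes differed between the lines. Most genes were called in the real data, so that run does not measure error rates here. DESeq2 1.42.0 and other scalings, filters and subsets of libraries were alternatives. Symbols, gene bounds and promoters came from RefSeq GRCm38.p6 and a table of Ensembl names. Promoter motifs included a Miz1 motif of 10 bases, which stood in 0 members and 1 of 17492 genes. All members are named, and in each other list the 2 called genes with the largest rise and fall at 1 CPM or more in the higher line; some of these are not reported here. Members and lists were chosen with earlier results of these data known. The comparison with neighbours and the count ratios were added after values were seen. Figures were drawn with matplotlib 3.10.9.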

Additional observations from a re-analysis of the deposited data

How the results depend on the processing

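Of the 28 genes, 25 kept their direction and their side of the threshold under all 14 alternative settings (other scalings, filters, DESeq2, the replicate block and each library left out), and no direction reversed. The exceptions were Msmo1, Ebp and Abcg1, given above. Msmo1 lost its call with size factors of the RLE method (0.10), with DESeq2 (0.10) and without P6D4 replicate 3, 70Z/3 replicate 1 or 70Z/3 replicate 3, over a range of log2 fold change of 0.07 to 0.18. Ebp lost it with upper quartile scaling (-0.09) and without P6D4 replicate 2 or 70Z/3 replicate 3 (range -0.19 to -0.09). The count of efflux, storage and LXR genes called lower ranged from 1 to 2 when a library was left out, with 2 (Abca1 and Abcg1) without 70Z/3 replicate 2. The synthesis median lay between 0.62 and 0.72 over all settings. Replicate numbers are shared between the lines with no stated pairing, and deviations of same-numbered libraries correlated at -0.06, -0.05 and 0.01. With the number as a replicate block, 5867 genes were called higher and 5847 lower, and 27 of 28 members were called. In the peak comparison, 1 member (Mvd, 70Z/3 list) had a peak within 5 kb, or with any base of a peak within 1 kb, against 0 by summit within 1 kb. Counts were fewest for Abca1 in P6D4 (2 in all) and Nr1h3 in 70Z/3 (55 in all), followed by Nr1h3 in P6D4 (318) and Tm7sf2 in 70Z/3 (146, 179 and 152 per library), and counting error weighs most on these.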
